A study of Homo sapiens with 39 samples.

Results

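Cancer-testis antigens are proteins made in male germ cells, largely silent in other adult tissues and made again by many tumours. The genes were taken from the tables by name. They are the 76 symbols that start with MAGEA, MAGEB, MAGEC, GAGE, PAGE, XAGE or SSX and a number, together with PRAME, of 23710 symbols in each table. A member counted as expressed where the authors' mean count was over 10 in at least 1 of 5 tables, which held for 6 members. The 6 were thus chosen by the mean count of the same comparisons, and their values are given as a description. Of these, SSX2IP was taken only because of its spelling. It encodes a centrosomal binding partner of SSX2 that most cell types make and is no antigen, so 5 antigen genes were expressed: PRAME, GAGE1, GAGE2A, PAGE1 and MAGEC3.

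The study asked how the amount of TRIM37, a ubiquitin ligase, relates to gene expression in hTERT RPE1, an immortalised retinal pigment epithelial line, and in CHP-134, a neuroblastoma line. Its 39 libraries fall into 9 groups: 9 of wild type RPE1, 9 of RPE1 with TRIM37 knocked out, 3 of wild type CHP-134, 3 each of CHP-134 TRIM37 mutant clones 1 and 2, whose genotype is labelled a partial TRIM37 knockout, and 3 untreated and 3 doxycycline-treated libraries each of RPE1 TetOn clones 4 and 5. The TetOn clones carry an inducible TRIM37 and were treated with 1 µM doxycycline for 24 h. Each mutant or TetOn group of libraries stands for 1 clone, and no clone is named for the RPE1 knockout. In the knockout and mutant comparisons an effect of TRIM37 and a difference between clones cannot be told apart. The TetOn comparisons lie within a clone, but none of the 9 groups had doxycycline without the inducible TRIM37. Effects of TRIM37 and of doxycycline itself therefore cannot be told apart there. The wild type RPE1 libraries are labelled as replicates within replicates, while the knockout libraries are numbered singly, and what this nesting stands for is not stated. No source used here says that replicates were separate cultures, so the errors may be technical only.

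The files hold 5 tables, each the authors' comparison of an altered group with its control, with a mean count over both groups, a log2 fold change and its SE (standard error), and a q, the p-value adjusted across the table. Single libraries have no values there, so their depth is unknown and no spread over them can be shown. Genes were called where q was under 0.05, and genes with the Status Low, at a mean count of at most 10, have a q of 1. Measured genes are those with the Status OK, so genes the authors marked Outlier are left out. The direction of a table was read from TRIM37, at -1.95 in the knockout, -1.66 and -1.75 in CHP-134 clones 1 and 2 and 3.19 and 2.64 in TetOn clones 4 and 5 in the authors' deposited tables. Of 15 neuroblastoma markers, 13 were above the limit in each CHP-134 table, with MYCN at a mean count of 49700 in that of clone 1, while the catecholamine enzyme genes DBH (5.26) and TH (6.95) lay below it. Of the 9 measured there, 7 rose and 0 fell in clone 1, where 9.6% of all measured genes rose and 9.07% fell. In clone 2, 4 rose and 3 fell, where 22% of all genes rose and 24.2% fell, and their part in the results on antigen genes was not tested. Of 13 pigment epithelium markers, 6 were above the limit in the RPE1 knockout table, where the keratin genes KRT8 (20500) and KRT18 (25800) and the transcription factor genes MITF (2140) and OTX2 (874) were high and PMEL (31.3) and LRAT (16.6) low. Of the other 7, the visual cycle gene RPE65 (0.173) was near 0, the pigment enzyme gene TYR was listed at 0, and BEST1 (5.45) and SERPINF1 (9.95) were Low. In the table of CHP-134 clone 1, 4 of the 13 were above the limit: BEST1 (55.7), SERPINF1 (315), MITF (206) and OTX2 (82.8). The neuroblastoma markers above it in the RPE1 knockout table were 3: GATA2 (460), GATA3 (52.5) and HAND2 (46.8).

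Most genes of these families lie in clusters of near-identical copies on the X chromosome. Their promoters hold CG dinucleotides that are methylated in body cells, and loss of that methylation is a known route to their expression in tumours. MAGE proteins bind RING-type ubiquitin ligases and steer them to substrates, GAGE, PAGE and XAGE proteins are small, acidic and poorly understood, SSX proteins repress transcription, and PRAME, on chromosome 22, is a substrate receptor of a cullin ligase that also represses retinoic acid receptor signalling.

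The promoters of the expressed antigen genes are shown first, because the results turn on genes that share them. Each line is the 250 bases before the start that RefSeq gives on GRCh38.p14, 5′ to 3′ on the strand of the gene, with CG dinucleotides in capitals. They are chrX:49589246-49589495 on the plus strand for GAGE2A, chrX:49598770-49599019 on the plus strand for the second of 2 GAGE1 starts, chrX:49695985-49696234 on the minus strand for PAGE1, chr22:22559266-22559515 on the minus strand for the first of 3 PRAME starts and chrX:141894416-141894665 on the plus strand for MAGEC3. The authors' build is not given in the sources used here.
GAGE2A: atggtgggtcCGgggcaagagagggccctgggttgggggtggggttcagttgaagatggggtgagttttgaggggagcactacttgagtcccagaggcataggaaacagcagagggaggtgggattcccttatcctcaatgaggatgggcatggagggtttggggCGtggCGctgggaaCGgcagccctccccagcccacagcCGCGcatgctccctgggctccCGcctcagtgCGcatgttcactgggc
GAGE1: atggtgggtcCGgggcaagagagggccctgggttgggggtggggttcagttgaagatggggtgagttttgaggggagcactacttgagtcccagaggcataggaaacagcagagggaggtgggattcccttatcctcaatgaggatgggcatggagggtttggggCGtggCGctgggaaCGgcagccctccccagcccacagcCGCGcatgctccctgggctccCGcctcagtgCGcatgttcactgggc
PAGE1: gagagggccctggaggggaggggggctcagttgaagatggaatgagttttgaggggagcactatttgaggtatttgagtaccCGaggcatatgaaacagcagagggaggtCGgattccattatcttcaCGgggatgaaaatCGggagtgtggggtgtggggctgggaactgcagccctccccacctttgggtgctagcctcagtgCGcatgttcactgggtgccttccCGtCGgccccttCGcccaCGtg
PRAME: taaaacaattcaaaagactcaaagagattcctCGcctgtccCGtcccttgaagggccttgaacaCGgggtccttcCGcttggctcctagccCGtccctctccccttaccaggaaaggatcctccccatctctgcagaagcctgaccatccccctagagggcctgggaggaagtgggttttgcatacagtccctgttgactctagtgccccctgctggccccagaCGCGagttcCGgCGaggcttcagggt
MAGEC3: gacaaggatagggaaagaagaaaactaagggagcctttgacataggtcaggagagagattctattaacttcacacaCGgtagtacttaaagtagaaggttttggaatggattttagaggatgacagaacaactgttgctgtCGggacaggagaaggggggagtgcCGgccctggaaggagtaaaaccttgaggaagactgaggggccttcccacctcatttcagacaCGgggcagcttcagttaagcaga

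GAGE1 and GAGE2A had the same 250 bases. Of 11 GAGE genes compared with GAGE1, 8 were identical to it over all 250 bases, 2 carried the same bases over a shorter, shifted overlap, and GAGE10 matched at 224 of 248 aligned bases. PAGE1 matched GAGE1 at 178 of 212 aligned bases, so its promoter is a diverged relative of the GAGE promoter. In the whole window of 300 bases, 50 of them after the start, GAGE1, GAGE2A, PAGE1 and the first PRAME start each held 13 CG dinucleotides and MAGEC3 held 5, against a median of 14 over all 35116 windows of the RefSeq table. The palindrome CACGTG was in 13 of 13 GAGE windows and in that of PAGE1, against 7.26% of all windows. The letters TTCCG, searched on both strands, were in 0 of 13 GAGE windows and in 36.1% of the windows of all 54 matched members, against 34.9% of all windows. The GAGE windows are largely copies of one another, so neither count is read as an enrichment or a lack.

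Shared sequence also limits what a count can say, and for some symbols absent signal cannot be told from unreadable signal. Of the 76 symbols, 60 had transcripts in GENCODE release 29, whose gene set differs from the one the tables use. For each, the share of its 50-base stretches that occur in no other gene's transcripts was counted. It was 100% for PRAME, PAGE1 and SSX2IP, 99.5% for MAGEC3, 87.1% for GAGE1 and 14.8% for GAGE2A. The share of GAGE1 rests on a longest transcript of 3129 bases, against 528 for GAGE2A. Which part of that transcript the reads came from is unknown, so more of them may be shared than the 87.1% implies. The sources used here do not say how the authors assigned reads that fit several copies. The split of reads between GAGE2A, GAGE1 and the other GAGE copies is therefore uncertain.

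**Figure D1:**
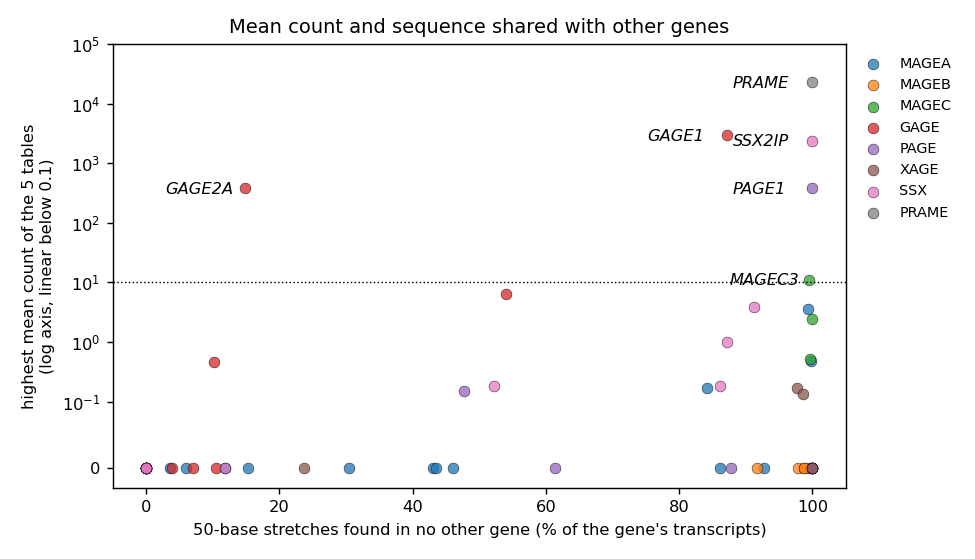
Highest mean count of the 5 deposited tables (log axis, linear below 0.1) against the share of 50-base transcript stretches found in no other gene, for the 60 members in GENCODE release 29, coloured by family, with the limit of 10 dotted. PRAME, PAGE1 and SSX2IP sit at 100%, GAGE2A at 14.8%, and members listed at 0 span the whole axis.

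In all, 55 of the 76 symbols were listed at 0 in all 5 tables. For 14 of these at least 90% of stretches were unique, among them all 9 MAGEB genes, so a zero there is readable. For 23 fewer than 50% were unique, and 15 had no transcript in GENCODE release 29. The GAGE family shows the problem best: 18 of its 22 symbols were at 0, of which 9 had under 50% unique stretches and 9 were not in that gene set. In the MAGEA family 11 of 14 symbols were at 0 and 0 passed the limit.

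A further 15 symbols had a mean count above 0 but not over 10. The limit fell between MAGEC3, just inside with 11 in the knockout table, and GAGE10, just outside with 6.33 and 2.66 in the authors' deposited tables for CHP-134 clones 1 and 2. SSX1 (3.80 and 3.49) and MAGEA1 (3.58 and 3.35) followed in those tables. The authors' deposited tables give log2 fold changes in clones 1 and 2 of 0.26 and -1.11 for GAGE10, -0.57 and -1.09 for SSX1 and -0.60 and -1.18 for MAGEA1. At such counts these are values with no call. A count above 0 in at least 1 table was seen for 17 symbols in CHP-134 and for 8 in RPE1.

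The antigen genes split by cell line. PRAME, GAGE1, GAGE2A and PAGE1 were expressed in CHP-134 and listed at 0 in all 3 RPE1 tables, while MAGEC3 passed the limit in the RPE1 knockout table alone and was at 0 and 0.134 in the CHP-134 tables. SSX2IP was measured in all 5 tables. The tables were normalised separately, so levels are not set against each other between lines.

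Each CHP-134 mutant clone was set against wild type, with the same 3 wild type libraries in both comparisons, to ask what goes with less TRIM37 in a neuroblastoma line. PRAME was not called in either clone, GAGE1 fell in clone 2, PAGE1 fell in both clones and GAGE2A rose in clone 1. In clone 1, 5 of the 6 members were measured and 2 were called, 1 up and 1 down, where 18.7% of all 12791 measured genes were called (9.6% rose and 9.07% fell). In clone 2, 4 were measured and 3 were called, all down, where 46.2% of 12771 were called (22% rose and 24.2% fell). Since the mean count of these same comparisons chose the members, nothing is read from these counts.

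Group levels were worked out from the mean count and the fold change, taking the mean count as the average of 2 groups of equal size. The wild type libraries enter both CHP-134 tables, which checks this: of 10201 genes whose mean count reached 100, 99.8% gave the same wild type level within 0.1 on the log2 scale, after the median ratio of 1.06 between the tables. The check took only genes measured in both tables, so GAGE2A, with the Status Low in that of clone 2, was not part of it. It covers wild type levels only, so the levels in the mutant clones rest on the deposited fold changes. Levels below are in the authors' normalised reads.

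GAGE1 stood at 2895 in wild type and 2965 in clone 1 by the first table, and at 3072 in wild type and 8.14 in clone 2 by the second. Its count was thus as high in clone 1 as in wild type and below the limit of 10 in clone 2. How much of it came from reads that fit other GAGE copies is unknown. The log2 fold change in the authors' deposited tables was 0.035, SE 0.0758, q = 0.805 in clone 1 and -8.56, SE 0.249, with a q printed as 0, in clone 2. This was the lowest of all 12771 measured genes in clone 2, about a 377-fold lower level.

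PAGE1 was lower in both clones, and lower still in clone 2. It went from 661 in wild type to 101 in clone 1, and from 706 to 9.67 in clone 2. The log2 fold change in the authors' deposited tables was -2.71, SE 0.112 in clone 1 and -6.19, SE 0.235 in clone 2, with both q values printed as 0. PAGE1 ranked second lowest in clone 2 after GAGE1, and GAGE1 and PAGE1 were the only 2 genes at or below -6 there. All stretches of PAGE1 are its own, so at that length no other gene shares its reads.

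GAGE2A moved in opposite directions in the clones. It stood at 26.9 in wild type and 729 in clone 1 by the first table, and at 16.7 in wild type and 3.04 in clone 2 by the second. Both wild type levels are of the same libraries and do not match, so the levels of GAGE2A are rough. Its log2 fold change in clone 1 was 4.76, SE 0.165, with a q printed as 0 in the authors' deposited table, the highest of all 12791 measured genes, and no other measured gene reached 4. In clone 2 it was -2.46, SE 0.358 in the authors' deposited table, at a mean count of 9.89 that fell just short of the limit, so it has no call. Its promoter bases are those of GAGE1, whose level in clone 1 was 1.02 times that in wild type.

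PRAME and PAGE1, whose stretches are all unique, were compared per transcript length, and PRAME was the more abundant. Its mean count per kilobase of longest transcript, 7277 in the clone 1 table, exceeded that of 99.0% of 11792 measured genes of known length, and that of PAGE1, 573, exceeded 74.5%. Both are means over wild type and clone 1, between which PAGE1 fell from 661 to 101, so its value describes neither group. PRAME stood at 20803 in wild type and 20397 in clone 1, and at 22121 and 23279 in the table of clone 2. The log2 fold change in the authors' deposited tables was -0.029, with a 95% interval from -0.119 to 0.062, q = 0.73, in clone 1 and 0.074, with an interval from -0.018 to 0.165, q = 0.188, in clone 2. These intervals bound how far PRAME may have moved in each clone and do not show that it stayed the same.

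**Figure D2:**
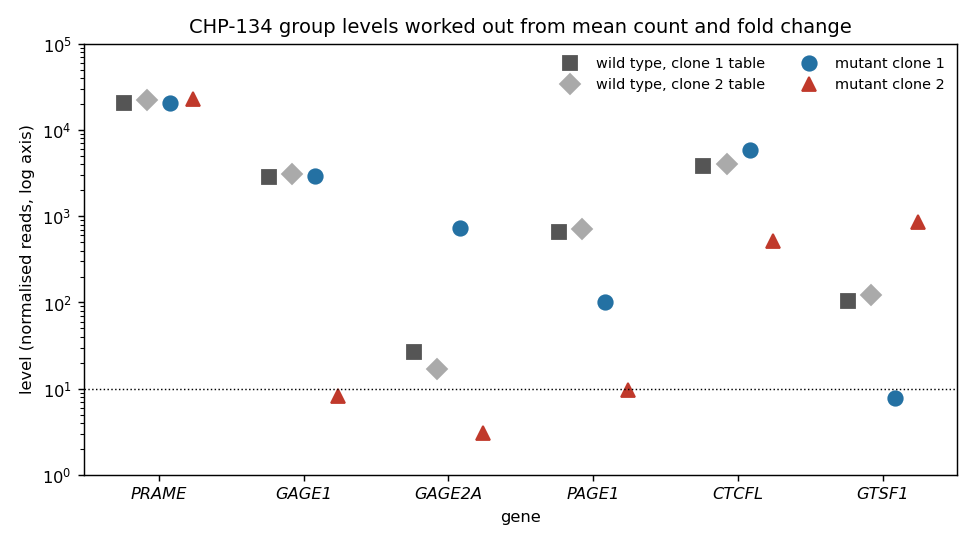
Level of 4 antigen genes and of the germline genes CTCFL and GTSF1 in CHP-134 (normalised reads, log axis), with the wild type level by each table and the limit of 10 dotted. PRAME stays between 20397 and 23279 in all groups, GAGE1 and PAGE1 end below 10 in clone 2, and GAGE2A reaches 729 in clone 1 alone.

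The clones were also set against each other as the difference of their log2 fold changes, clone 2 minus clone 1. It was -8.59, combined SE 0.26 for GAGE1, -7.22, SE 0.394 for GAGE2A, -3.48, SE 0.26 for PAGE1, 0.10, SE 0.0657 for PRAME and -0.17, SE 0.122 for SSX2IP. Among 13608 genes with a mean count over 10 in either table, GAGE1 and GAGE2A gave the lowest and the second lowest difference, and no other gene reached -7. PAGE1 came 33rd from the lowest. These genes were proposed for their difference between clones, so no test is given, and the shared wild type makes the combined SE too large.

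**Figure D3:**
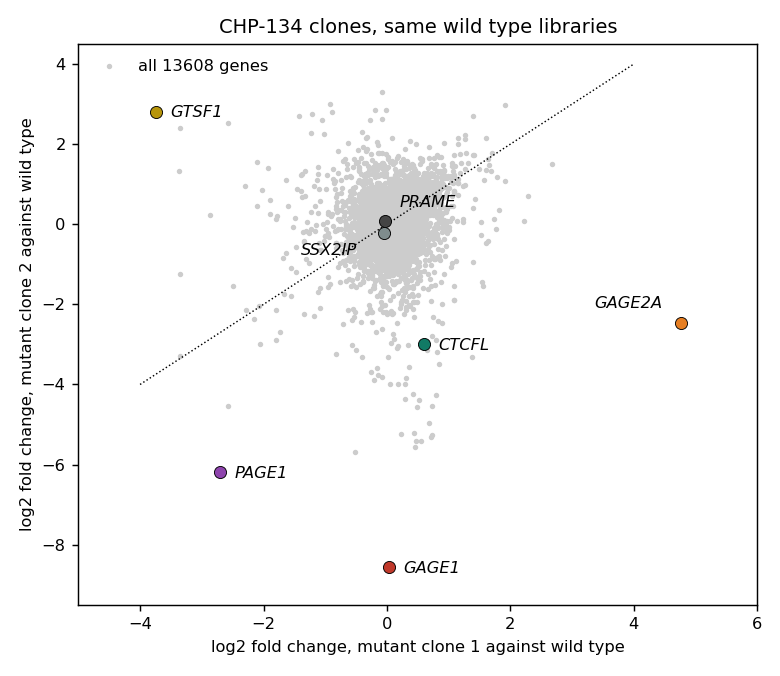
Deposited log2 fold change in mutant clone 2 against that in clone 1, both relative to the same wild type libraries, for 13608 genes (grey), with the members and the germline genes CTCFL and GTSF1 in colour and the line of equal change dotted. GAGE1 lies at 0.035 and -8.56, PAGE1 at -2.71 and -6.19 and GAGE2A at 4.76 and -2.46, all outside the cloud.

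The affected genes lie close together in RefSeq. Among the 57 of 76 symbols matched there, GAGE2A, GAGE1 and PAGE1 follow one another along the X chromosome at the end of the GAGE cluster. PAGE4, listed at 0, comes after them. Several GAGE symbols were not matched, so their places are not known here. Only 14.8% of the stretches of GAGE2A are its own, so which copy gave its reads, and where its rise lies, is uncertain. The 3 nearest measured genes on either side that are not members were read beside them. In clone 1 the log2 fold changes of these 6 neighbours ran from -0.81 to 0.39, with 1 called up and 1 down. In clone 2 they ran from 0.0041 to 0.36, with 1 called up and 0 down. The authors' deposited tables put USP27X, a deubiquitinase gene and the nearest measured gene beyond PAGE1, at -0.81, SE 0.183, q = 0.00021 in clone 1 and at 0.30, SE 0.153, q = 0.0961 in clone 2. PPP1R3F, a glycogen phosphatase subunit gene at the other border, was called up in both clones, and the authors' deposited tables give 0.39, SE 0.099 and 0.24, SE 0.09. Over the X chromosome as a whole the median was -0.018 in clone 1 and -0.035 in clone 2, with 18.1% of 419 and 43.1% of 415 measured genes called.

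**Figure D4:**
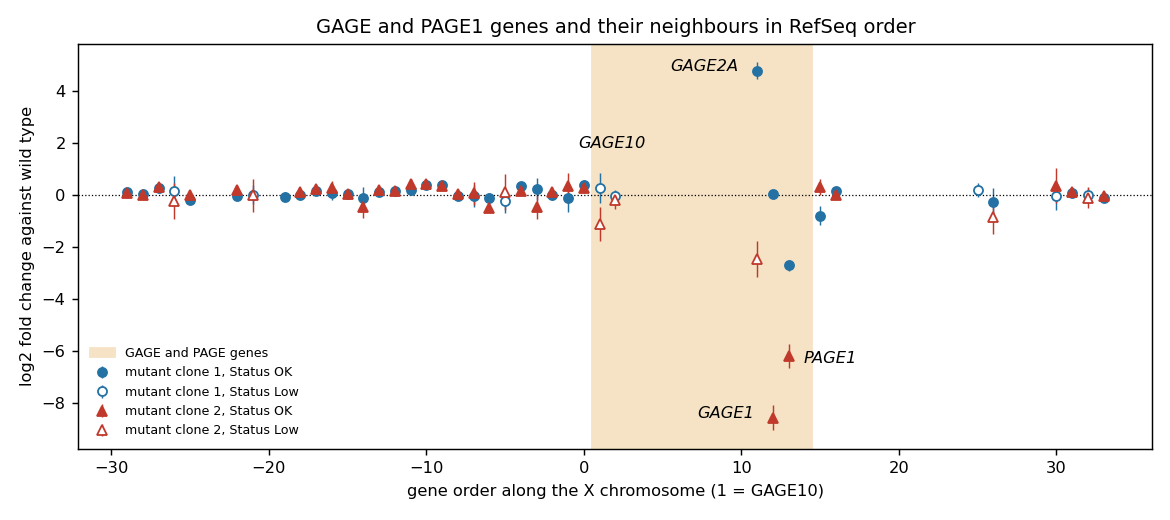
Deposited log2 fold change with its 95% interval in CHP-134 clones 1 and 2 for genes in RefSeq order around the GAGE and PAGE genes (shaded), leaving out genes listed at 0 and those with the Status Outlier, with open symbols for the Status Low. GAGE2A, GAGE1 and PAGE1 leave the line at 0 by more than 2 in at least 1 clone, while the called neighbours PPP1R3F and USP27X stay between -0.81 and 0.39.

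In RPE1 the knockout was compared with wild type. MAGEC3, a MAGE gene of the Xq27 cluster, was at 2.95 in wild type and 19.0 in the knockout, a log2 fold change of 2.69, SE 0.40, q = 1.04e-10 in the authors' deposited table. Its mean count of 11 lay just over the limit, and only the knockout group was above it. The neighbouring genes MAGEC1 (0.173) and MAGEC2 (0.171) had mean counts near 0 in that table. The authors' deposited table put SSX2IP at 0.17, SE 0.0373, q = 1.82e-05. The calls of both MAGEC3 and SSX2IP ended once each statistic was divided by the central spread of its table, 3.64 here. Of the 6 members these 2 were measured and both were called up, where 53.6% of all 13002 measured genes were called, 26.6% up and 26.9% down. With a log2 fold change of at least 1 asked as well, 6% of all genes and MAGEC3 alone of the members were called. The 6 nearest measured genes around MAGEC3 lay between -0.047 and 0.11, with 1 called up.

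No antigen gene was above the limit in either doxycycline comparison, so none was tested there. In TetOn clone 4, 1 of the 6 members was measured and 0 were called by the authors' DESeq2 q, nor at an unadjusted p under 0.05, where 1.95% of 12153 genes were called, and in clone 5 it was 1 measured and 0 called, where 2.97% of 12195 were. The measured member was SSX2IP, which the authors' deposited tables put at -0.063, SE 0.0475 and at 0.057, SE 0.0504. The clones differed in what little was seen: MAGEC3 had a mean count of 2.11 in clone 4 and was listed at 0 in clone 5, and MAGEC2 had 2.40 and 0.

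SSX2IP, the centrosomal gene, was put by the authors' deposited tables at -0.051, SE 0.0857, q = 0.739 in CHP-134 clone 1 and at -0.22, SE 0.0871, q = 0.0296 in clone 2. SSX2IP lies on chromosome 1, and its call in clone 2 held with the median of all measured genes subtracted (-0.21, recomputed q = 0.0414). With the median of X chromosome genes subtracted, which is not its own chromosome, the recomputed q was 0.0721. The call of SSX2IP in clone 2 was lost at a q under 0.01. It was also lost once each statistic was divided by the central spread of its table, 3.08 in clone 2.

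Other genes of the same class were read from a list of 75 further cancer-testis genes. In CHP-134 clone 1, 11 were measured, of which 1 rose and 1 fell, with a median of 0.076 against -0.0068 for all measured genes. In clone 2, 12 were measured, of which 2 rose and 4 fell, with a median of 0.093 against -0.012. Over all measured genes 18.7% were called in clone 1 and 46.2% in clone 2. CTCFL, the testis paralog of the chromatin insulator CTCF, stood at 3859 in wild type and 5821 in clone 1, and at 4089 and 511 in the table of clone 2. The authors' deposited tables give it a log2 fold change of 0.59, SE 0.0345 in clone 1 and -3.0, SE 0.06 in clone 2, so that it was called up in one clone and down in the other. The meiosis gene TEX15 fell in clone 1 (-0.31, SE 0.0974), and in clone 2 the actin-related gene ACTL8 (-2.24, SE 0.265) and TEX14 (-0.53, SE 0.113), a gene of germ cell bridges, fell and TMEFF1 (1.45, SE 0.311) rose in the authors' deposited tables. In the RPE1 knockout 6 were measured, with LY6K called up (0.77, SE 0.313), where 53.6% of all measured genes were called. In TetOn clones 4 and 5, 4 and 3 were measured, with 0 called by the authors' DESeq2 q and 0 at an unadjusted p under 0.05. Of all measured genes 1.95% and 2.97% were called there.

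A list of 35 other germline genes had 4 measured members in each CHP-134 table, of which 0 rose and 3 fell in clone 1, while 2 rose and 2 fell in clone 2, against 18.7% and 46.2% of all genes called. GTSF1, which encodes a partner of the germline small RNA pathway, went from 103 in wild type to 7.73 in clone 1 and from 122 to 856 in clone 2. It was thus nearly lost in the first clone and raised in the second, and the authors' deposited tables give log2 fold changes of -3.74, SE 0.259 and 2.81, SE 0.107. GTSF1 was the lowest of all measured genes in clone 1, and its difference between the clones, 6.55, SE 0.28, was the highest of the 13608. Both SALL4 (-2.07 and -2.05), a stem cell transcription factor gene, and TEX19 (-0.34 and -0.63) were called down in each clone, and DND1 (0.41) was called up in clone 2 in the authors' deposited tables. In the RPE1 knockout, where 53.6% of all measured genes were called, the sex determination gene DMRT1 was the called gene among 3 measured. The authors' deposited table put it at 1.55, SE 0.29.

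The machinery that silences germline genes was read from 3 lists, in which DNMT3B in the RPE1 knockout was the called gene farthest from 0. Of 21 genes of DNA methylation and its removal, 18 were measured in each CHP-134 clone. In clone 1, 0 rose and 5 fell (median -0.08), where 18.7% of all measured genes were called (median -0.0068). In clone 2, 6 rose and 7 fell (median -0.0022), where 46.2% of all measured genes were called (median -0.012). The dioxygenase gene TET1 (-0.40, SE 0.0794), which encodes an enzyme that starts demethylation, and the remodeller gene HELLS (-0.27, SE 0.0802) fell in clone 1, and ZBTB33 (-0.43, SE 0.0917), a reader of methylated DNA, and HELLS (-0.26, SE 0.0728) fell while TET3 (0.36, SE 0.0886) rose in clone 2 in the authors' deposited tables. In the RPE1 knockout 8 of 20 rose and 6 fell, where 53.6% of all measured genes were called. Among those that fell were the methyltransferase genes DNMT3B (-0.65, SE 0.115) and DNMT3A (-0.32, SE 0.059) in the authors' deposited table. In TetOn clones 4 and 5, 0 were called of 19 and 20 by the authors' DESeq2 q, with 1 and 2 at an unadjusted p under 0.05. Of all measured genes 1.95% and 2.97% were called there.

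Of 21 genes of methylation of histone H3 at H3K9, a lysine, and of heterochromatin, all were measured in both CHP-134 clones. There 0 rose and 4 fell in clone 1, while 4 rose and 4 fell in clone 2. MORC2, a partner of the HUSH silencing complex, was called down in clone 1 (-0.26, SE 0.0437) and up in clone 2 (0.22, SE 0.0367) in the authors' deposited tables. In the RPE1 knockout 8 rose and 3 fell, led by ATF7IP (0.52, SE 0.035), the partner of the methyltransferase SETDB1, in the authors' deposited table. Of 12 genes of the Polycomb complex that represses germline genes through E2F6 and MGA, 0 rose and 2 fell in clone 1, 2 rose and 1 fell in clone 2, and 6 rose and 2 fell in the RPE1 knockout. There the authors' deposited table put MGA at -0.58, SE 0.0681 and YAF2 at 0.52, SE 0.0613. The ligase gene RNF2 fell in both CHP-134 clones, where the authors' deposited tables give -0.16, SE 0.0533 and -0.21, SE 0.0774. In the TetOn clones 0 genes of either list were called by the authors' DESeq2 q, with 2 heterochromatin genes in clone 4 and 1 Polycomb gene in clone 5 at an unadjusted p under 0.05. The shares called are to be read against the 18.7% and 46.2% of all genes in the CHP-134 clones and the 53.6% in the RPE1 knockout. In TetOn clones 4 and 5 the shares of all genes called were 1.95% and 2.97%.

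MAGE genes that most tissues express were read as the relatives of the antigens. Of 12, 7 were measured in each CHP-134 clone, where 1 rose and 3 fell in clone 1, while 2 rose and 1 fell in clone 2, against 18.7% and 46.2% of all genes called. The authors' deposited tables put MAGEF1 at 0.25, SE 0.0685 and -0.45, SE 0.0747 and MAGED2 at -0.15, SE 0.0399 and 0.24, SE 0.0422, so that both were called with opposite signs in the clones. In the RPE1 knockout, where 26.9% of all genes fell, 5 of 6 fell, led by TRO, which encodes trophinin (-0.87, SE 0.0871), and MAGED2 (-0.31, SE 0.0245) in the authors' deposited table. With doxycycline 1 of 5 measured genes was called down in TetOn clone 4, where 1.95% of all genes were called. In TetOn clone 5 it was 2 of 6, against 2.97%. MAGED1 was called down in both, which the authors' deposited tables put at -0.145, SE 0.0384 and -0.11, SE 0.0248. MAGED2 was called down in clone 5 (-0.122, SE 0.0327). MAGED1 was also called down in the RPE1 knockout (-0.102, SE 0.0174 in the authors' deposited table), where TRIM37 was lower.

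Partners of MAGE and PRAME ligases were also read. Of 13 genes, 0 rose and 3 fell among 11 measured in clone 1, and 2 rose and 3 fell among 10 in clone 2, against 18.7% and 46.2% of all genes called. CUL2, the scaffold of the PRAME ligase, fell in both clones, and the authors' deposited tables give -0.17, SE 0.0491 and -0.18, SE 0.057. RARA, the retinoic acid receptor that PRAME represses, rose in clone 2 by 0.44, SE 0.102 in the authors' deposited table. In the RPE1 knockout 3 rose and 3 fell of 10, where 53.6% of all genes were called, and the authors' deposited table put RARA at -0.62, SE 0.035. In TetOn clone 4, 0 of 11 were called by the authors' DESeq2 q, with 1 at an unadjusted p under 0.05, and in clone 5 RARA was the 1 called of 11 (-0.20, SE 0.0557 in the authors' deposited table). Of all measured genes 1.95% were called in TetOn clone 4 and 2.97% in clone 5.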

How the data were processed

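The authors processed the RNA-seq reads of all 39 libraries with STAR and DESeq2, per the submitters' processing notes, with no version in them. The genome build and annotation, like the strand setting and counting rule, were not given in the sources used here. Per the file headers, each deposited table gives a mean count, here treated as a signal per gene, a log2 fold change with its SE, and a q value. The authors' log2 fold changes of low genes look drawn toward 0: XAGE5, at a mean count of 0.162 in the table of CHP-134 clone 1, has an SE of only 0.0688. Folds of low genes are thus likely understated.

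The main test is the authors' deposited q. Normal p-values from each log2 fold change divided by its SE, adjusted with the Benjamini-Hochberg method in Python 3.11.15 with scipy 1.17.1, called 2391 genes against 2388 deposited in CHP-134 clone 1 and served for the alternatives and for counts at an unadjusted p. The step was tested on simulated data. Sequences and gene order are RefSeq's on GRCh38.p14, where 57 of 76 symbols matched by gene and 54 by promoter. Promoters were aligned with biopython 1.88. Every member over the limit is named, and of each other list at most 4 called genes per comparison. The members, lists and rules were chosen with earlier results of these data known. Depth per library is unknown, so precision is that of the authors' SE.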

Additional observations from a re-analysis of the deposited data

How the results depend on the processing

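Of 6 members over the limit, 1 was over it in all 5 tables, SSX2IP. Of 2 members called in the RPE1 knockout, 1 remained with a log2 fold change of at least 1, 1 at a mean count of at least 50, 1 with SSX2IP left out, a setting added after the data were seen, and 0 once each statistic was divided by the central spread of its table, where 1261 of all 13002 genes passed. The same division called 243 genes in CHP-134 clone 1, against 2388 deposited, and 253 in clone 2, against 5898. Calls of small changes in the gene lists were not checked this way. In CHP-134 clone 1, 1 of 2 called members remained where at least 50% of 50-base stretches had to be unique, also added later, since GAGE2A drops out. The wild type level of GAGE2A was 26.9 by the table of clone 1 and 16.7 by that of clone 2. The other 48 recomputed counts, levels and differences stayed within 1.5 times or within their error, and subtracting the median of all measured genes or of X chromosome genes turned no sign of a named member. PRAME, on chromosome 22, passed in clone 2 at 0.108 and a recomputed q = 0.0452 with the X chromosome median subtracted. It did not pass with the median of all measured genes subtracted (0.086, recomputed q = 0.119). No paired analysis was possible because the tables hold no value per library, and for the same reason no replicate could be left out. Leaving out members by protein identity was not run.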
